A study of Mus musculus with 71 samples.

Results

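Neuropeptides are short signalling peptides that neurons cut from larger precursor proteins, pack into dense-core vesicles and release to act on G-protein-coupled receptors. The genes described here are 35 listed precursors, among them the granins Chga, Chgb, Scg2 and Vgf, which are cargo proteins of the same vesicles and are themselves cut into peptides. A gene was included when a probe set of the array carried its symbol in the platform annotation, and where several did, the probe set with the highest mean log2 value over all 71 arrays was used. This gave 30 members of 18193 genes with a probe set. Agrp, Gnrh1, Nms, Kiss1 and Qrfp had none in the annotation used and were not analysed here. Nmu, Ucn and Ucn3 were never above the median of an array, while Prok2 exceeded it in 1 array, Npb in 5, Ghrh in 8 and Cort in 12.

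The study deleted either of a pair of histone methyltransferases in neurons of adult mice, GLP, encoded by Ehmt1, or its partner G9a, encoded by Ehmt2. Together they methylate lysine 9 of histone H3, which is linked to gene silencing. In 59 arrays, total RNA came from hippocampus, hypothalamus, striatum or cortex. The mutants were Camk2a-Cre; GLPfl/fl or Camk2a-Cre; G9afl/fl mice, and their controls were floxed littermates without Cre, GLPfl/fl or G9afl/fl. The Camk2a promoter drives Cre in forebrain neurons after birth, so glia and neurons that do not use it keep the enzyme. Each tissue group had 4 arrays apart from G9a cortex, with 2 mutants and 2 controls, and the controls of G9a hippocampus, of which there were 3. A further 12 arrays held polyribosome-bound messenger RNA pulled down from striatal medium spiny neurons (MSN), the projection neurons that make up most of the striatum, in 4 groups of 3 pools of 5 mice each. The mutant pools carried Drd1-Cre with Drd1-bacTRAP, or Drd2-Cre with Drd2-bacTRAP, on G9afl/fl, and their control pools carried the matching bacTRAP transgene, a tagged ribosomal protein, on G9afl/fl without Cre. All groups were 10 to 14 weeks old and all carried floxed alleles, controls included. The comparisons ask which precursors change when either enzyme is lost, and in which region or cell type each precursor is read.

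Values are log2 intensities relative to the array median, so 0 is the median of an array and a difference of 1 is a doubling. They are compared for 1 probe set between groups and never between probe sets. Ehmt1 was lower in GLP mutants of hippocampus, striatum and cortex by 0.46 to 0.76 (adjusted p at most 0.0191), and differed by -0.16 in hypothalamus with an adjusted p of 0.713. With 1 array left out in turn, the adjusted p of Ehmt1 in GLP striatum ran from 0.00869 to 0.109. Ehmt2 was lower in G9a mutants of all 4 tissues by 1.02 to 1.76 (adjusted p at most 1.39e-06). In the pools labelled mutant, Ehmt2 differed from control pools by -2.04 in Drd1-MSN and by -0.08 in Drd2-MSN, neither past the threshold. The Drd1-MSN pools labelled mutant ran from 1.56 to 5.01, against 5.49 to 6.22 in control pools, and without mutant pool 2, the lowest, the difference was -0.91. The Drd2-MSN pools labelled mutant did not show a lower Ehmt2 with this probe set. By Xist and Y-linked genes, GLP arrays were all female, G9a tissue arrays were mixed except cortex, which was all male, and Drd1-MSN pools were all male when labelled mutant and all female when control, so that sex and genotype cannot be told apart there. The lowest mean correlation of an array with its own group was 0.934, for Drd1-MSN mutant pool 2.

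The stretches of promoter below are shown because several members that differ between the MSN control pools carry a recognisable control motif there. The cAMP response element, CRE, is the 8-base palindrome bound by CREB, through which neuronal activity and cAMP are known to raise transcription of genes such as Sst. Each stretch is the 120 bases before an annotated start in RefSeq on GRCm38.p6, 5' to 3' on the gene's own strand. For Cartpt and Sst the annotated gene reaches further upstream, to 99910179 and 23891342, so their stretches lie inside its span. The regions are chr1:79440027-79440146 on the minus strand for Scg2, chr2:132781522-132781641 on the plus strand for Chgb, chr13:99900684-99900803 on the minus strand for Cartpt and chr16:23890845-23890964 on the minus strand for Sst, all of which hold a full CRE. Chr6:49822590-49822709 on the plus strand for Npy, chr10:102490419-102490538 on the minus strand for Nts, chr12:102554821-102554940 on the plus strand for Chga and chr4:149126764-149126883 on the minus strand for Cort are those of members that changed in a mutant comparison or separated the MSN pools. Capitals mark TGACGTCA (the full CRE), its 5-base core TGACG, and GGGCGG, a GC box bound by Sp1, each read on both strands, so that CCGCCC and CGTCA are the same motifs on the opposite strand.
Scg2: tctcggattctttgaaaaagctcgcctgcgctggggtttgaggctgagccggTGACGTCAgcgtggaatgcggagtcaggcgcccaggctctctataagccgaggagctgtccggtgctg
Chgb: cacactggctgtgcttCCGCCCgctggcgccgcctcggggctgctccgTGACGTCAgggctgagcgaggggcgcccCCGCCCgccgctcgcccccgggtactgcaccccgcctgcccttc
Cartpt: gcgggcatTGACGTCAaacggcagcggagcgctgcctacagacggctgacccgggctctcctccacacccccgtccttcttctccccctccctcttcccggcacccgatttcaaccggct
Sst: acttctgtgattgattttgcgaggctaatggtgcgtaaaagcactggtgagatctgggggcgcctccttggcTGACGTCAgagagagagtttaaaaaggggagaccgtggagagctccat
Npy: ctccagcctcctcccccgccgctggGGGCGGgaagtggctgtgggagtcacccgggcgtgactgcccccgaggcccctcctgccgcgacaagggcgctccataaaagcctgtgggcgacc
Nts: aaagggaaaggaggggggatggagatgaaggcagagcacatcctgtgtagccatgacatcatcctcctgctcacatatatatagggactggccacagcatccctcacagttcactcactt
Chga: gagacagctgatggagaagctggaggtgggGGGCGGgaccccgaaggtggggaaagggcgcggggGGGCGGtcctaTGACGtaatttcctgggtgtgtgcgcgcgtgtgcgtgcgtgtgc
Cort: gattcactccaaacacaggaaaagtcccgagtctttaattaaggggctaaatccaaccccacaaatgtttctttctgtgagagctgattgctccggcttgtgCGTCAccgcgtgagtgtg
The full CRE began 68 bases before the start used in Scg2, 72 in Chgb, 112 in Cartpt and 48 in Sst. Over the whole windows of 250 bases before to 50 after the start, 25 of the 30 members had an entry, and 5 of these held TGACGTCA (20% of members): the 4 above and Ucn. The same motif was present for 549 of 27025 genes with a window, or 2.03%. TGACG alone, which every full CRE contains, was present in 15 of 25 members (60%), against 23% of all genes. TATAAA, the TATA box, was present in 8 of 25 members (32%), against 15.7% of all genes. GGGCGG was present in 9 of 25 members (36%), against 38.2% of all genes. In the printed stretches, Chga held the TGACG core 44 bases before its start, and Cort held it 18 bases before its start on the opposite strand. Npy held a GC box alone and Nts held none of these letters. Npy, Nts and Chga, which were called between mutants and controls, thus held no full CRE. Grp, which changed most in the mutant comparisons, and Pnoc had no entry and are named only. Cck held TGACG but no full CRE in its window and is not printed.

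In control mice, the precursors divided the brain by region, as is well known for hypothalamic peptides. The hypothalamus was set against the mean of the other 3 regions over both control series. Of 25 members tested, 17 were higher and 6 lower in hypothalamus, with limma and an adjusted p of at most 0.05. At that threshold 76.6% of all genes tested differed, so the number of members called is near the background of a contrast between regions, and the sizes carry the description. The median difference of the members was 1.46, against -0.02 for all genes.

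Pmch, the precursor of melanin-concentrating hormone of the lateral hypothalamus, was higher in hypothalamus by 8.20 ± 0.24 (SE; adjusted p = 2.18e-21). In every hypothalamus control it was above 8, with the highest at 9.06, and it reached at most 2.62 in a control of any other region. Hcrt, the precursor of the wake-promoting orexins, was higher by 4.70 ± 0.11 (adjusted p = 2.47e-23). Both genes are made by separate neurons of the lateral hypothalamus, and neither gene's hypothalamus arrays overlapped those of another region.

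The neurohypophysial and releasing hormones followed. Oxt, encoding oxytocin, was higher in hypothalamus by 3.21 ± 0.16 and Avp, encoding vasopressin, by 3.15 ± 0.14. Trh, whose product drives release of thyrotropin, was higher by 2.89 ± 0.13. Ghrh, whose product drives release of growth hormone, was higher by 1.13 ± 0.15, but its mean in GLP series hypothalamus controls was below the array median, and with every value under 0 raised to 0 the difference was 0.32 ± 0.08. Crh, the stress-axis releasing hormone that is also made by cortical interneurons, was highest in cortex and next in hypothalamus in both control series. The gap between these regions was 0.66 in the GLP series, where arrays did not overlap, and 0.27 in the G9a series, where they did.

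Adcyap1, encoding PACAP, a peptide that raises cAMP, was higher in hypothalamus by 3.67 ± 0.12. Gal, encoding galanin, was higher by 2.56 ± 0.13, Tac2, encoding neurokinin B, by 2.04 ± 0.15 and Npvf, encoding RFamide-related peptides, by 1.84 ± 0.21, or by 1.16 ± 0.18 with that floor. Nts, encoding neurotensin, was higher by 1.82 ± 0.16 and Pnoc, encoding the opioid-like nociceptin, by 1.54 ± 0.15. Scg2, a granin cut into secretoneurin, was higher by 1.46 ± 0.05. These 7 genes were highest in hypothalamus in both control series.

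Several members were lower in hypothalamus. Cck, encoding cholecystokinin, abundant in cortical and hippocampal neurons, had a difference of -2.22 ± 0.25. Npy, encoding neuropeptide Y, a product of forebrain interneurons as well as of arcuate neurons that stimulate feeding, had a difference of -1.91 ± 0.11. Sst, encoding somatostatin, differed by -0.41 ± 0.08, but by -0.19 (adjusted p = 0.139) within the G9a series alone. The granins depended on the series. Vgf differed by -2.51 ± 0.21 within the GLP series and by 0.46 ± 0.22 within the G9a series (adjusted p = 0.0762), and Chga by -0.95 ± 0.09 and 0.85 ± 0.10, each past the threshold in opposite directions. The hypothalamus controls of the series also differed in 16 hypothalamus markers, whose mean was 0.20 to 0.40 in GLP arrays and 0.88 to 1.18 in G9a arrays. The part of the dissection in the granin values was not tested. Within single series, 18 of the 23 hypothalamus calls were again called with the same sign in the GLP series and 20 in the G9a series.

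**Figure D1:**
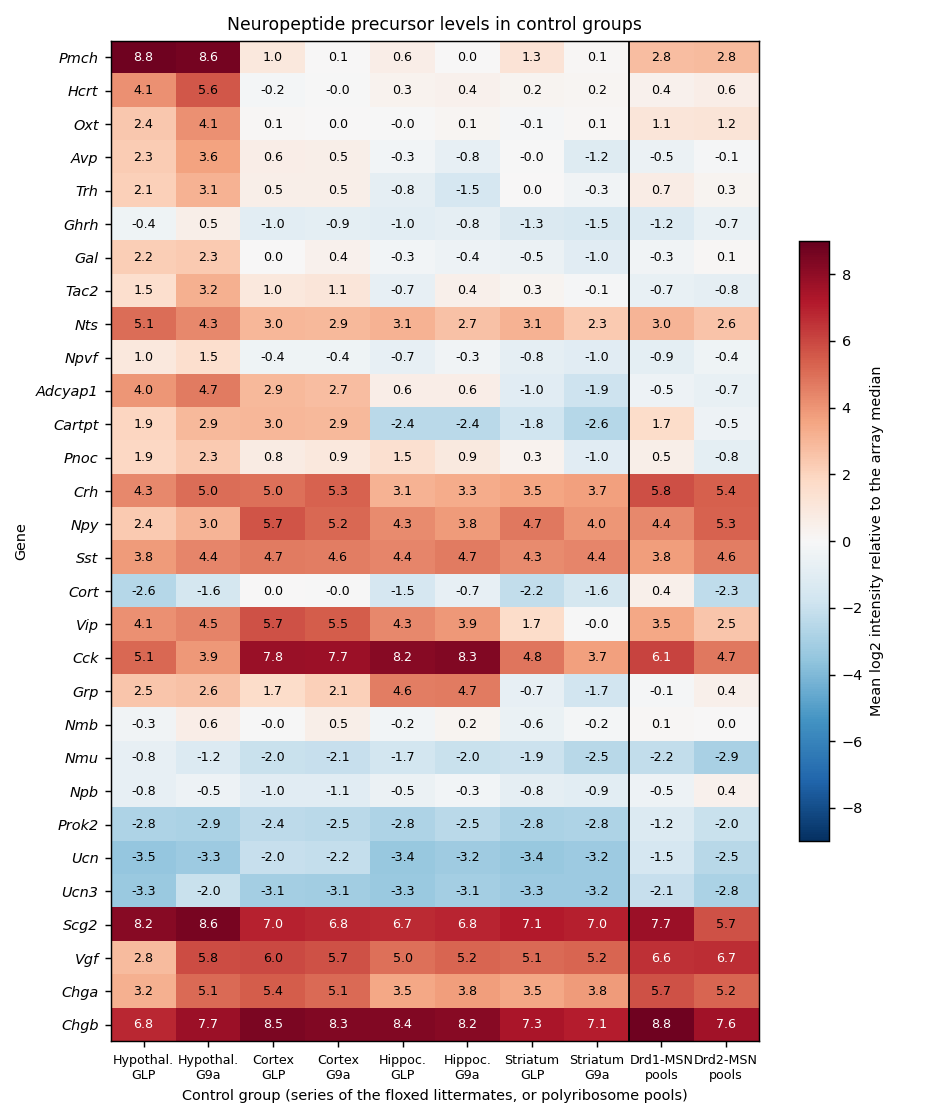
Mean log2 intensity relative to the array median (colour and number) of the 30 members (rows) in control groups (columns: each region in the GLP and G9a series, then the Drd1-MSN and Drd2-MSN control pools). Pmch is at 8.8 and 8.6 in hypothalamus controls and at most 1.3 in other tissues, while Grp and Cck are at their highest tissue level in hippocampus.

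Hippocampus stood out for a pair of members. Grp, encoding gastrin-releasing peptide, which acts on interneurons through the receptor Grpr, was higher there by 3.57 ± 0.28 (adjusted p = 1.68e-11), and Cck by 2.73 ± 0.27. In hippocampus controls Grp lay between 3.96 and 4.89, above every control array of the other regions. Cortex came next in Cck, lower than hippocampus by 0.37 in the GLP series and by 0.60 in the G9a series, without overlap. Of 25 members tested, 5 were higher and 13 lower in hippocampus, against 63.3% of all genes called. Cartpt, encoding the CART peptide that acts on appetite and reward circuits, had the largest deficit of the members there (-3.49 ± 0.17), with all hippocampus controls below the array median. With every value under 0 raised to 0, this difference was -1.80 ± 0.10.

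Cortex was highest for Npy, Cort and Vip in both series without overlap. Against the other regions, Vip, encoding vasoactive intestinal peptide, was higher in cortex by 2.50 ± 0.25, Npy by 1.73 ± 0.13 and Cort, encoding cortistatin, by 1.72 ± 0.10. All 3 mark classes of cortical GABAergic interneurons. Cartpt was also higher in cortex than the mean of the other regions, by 3.69 ± 0.18. Its cortex level was 1.07 above that of hypothalamus in the GLP series, without overlap. In the G9a series hypothalamus was highest, by 0.009 over cortex, and arrays overlapped. The sizes for Cort and Cartpt rest on values under the array median: with these raised to 0, Cort was higher by 0.03 ± 0.01 (adjusted p = 0.0443) and Cartpt by 2.15 ± 0.11. Of 25 members, 12 were higher and 5 lower in cortex, with 68.9% of all genes called.

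The striatum was the region poorest in the listed members, which do not include Penk, Tac1 or Pdyn. Of 25 members, 1 was higher and 22 were lower, with 65.4% of all genes called in either direction and 29.5% called lower. The exception, Npy, was higher by 0.29 ± 0.11 over both series, but differed by -0.05 ± 0.16 within the G9a series. Grp (-4.24 ± 0.27), Adcyap1 (-4.04 ± 0.12) and Vip (-3.83 ± 0.21) had the largest deficits, and with every value under 0 raised to 0 that of Adcyap1 was -2.59 ± 0.09. All G9a striatum controls and most GLP ones lay below the array median in Grp, and most G9a ones did in Vip. The sizes for Grp and Vip therefore also rest in part on low values. The mean of 24 other peptide precursors was -0.26 and -0.28 in GLP and G9a striatum controls. It was -0.72 and -0.60 in hippocampus, -0.48 and -0.22 in hypothalamus, and -0.23 and -0.20 in cortex controls. In tissue RNA, fewer cells of a type and less RNA per cell cannot be told apart.

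Few precursors changed between mutants and controls. The targeted gene was itself not called in GLP hypothalamus (Ehmt1) or in Drd1-MSN and Drd2-MSN (Ehmt2). Loss of its messenger RNA was therefore not established in those comparisons. Over 10 comparisons of mutants with controls, 26 of the 30 members were tested at least once, 11 in every comparison, and 4 of 186 member tests passed an adjusted p of 0.05. These were Npy in GLP hypothalamus, which fell, and Grp, Nts and Chga in G9a striatum, which rose. In 8 comparisons no member passed. The counts at an unadjusted p under 0.05 in those were 2 of 15 members tested in GLP hippocampus, 2 of 15 in GLP striatum and 1 of 22 in GLP cortex. They were 1 of 18 in G9a hippocampus, 4 of 24 in G9a hypothalamus, 0 of 21 in G9a cortex, 2 of 18 in G9a Drd1-MSN and 0 of 17 in G9a Drd2-MSN. Among all genes, the share called was 2.06% in GLP hippocampus, 1.65% in GLP striatum and 1.54% in GLP cortex. It was 2.64% in G9a hippocampus, 2.34% in G9a hypothalamus, 0.719% in G9a cortex, 0.0166% in Drd1-MSN and 0.0165% in Drd2-MSN.

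**Figure D2:**
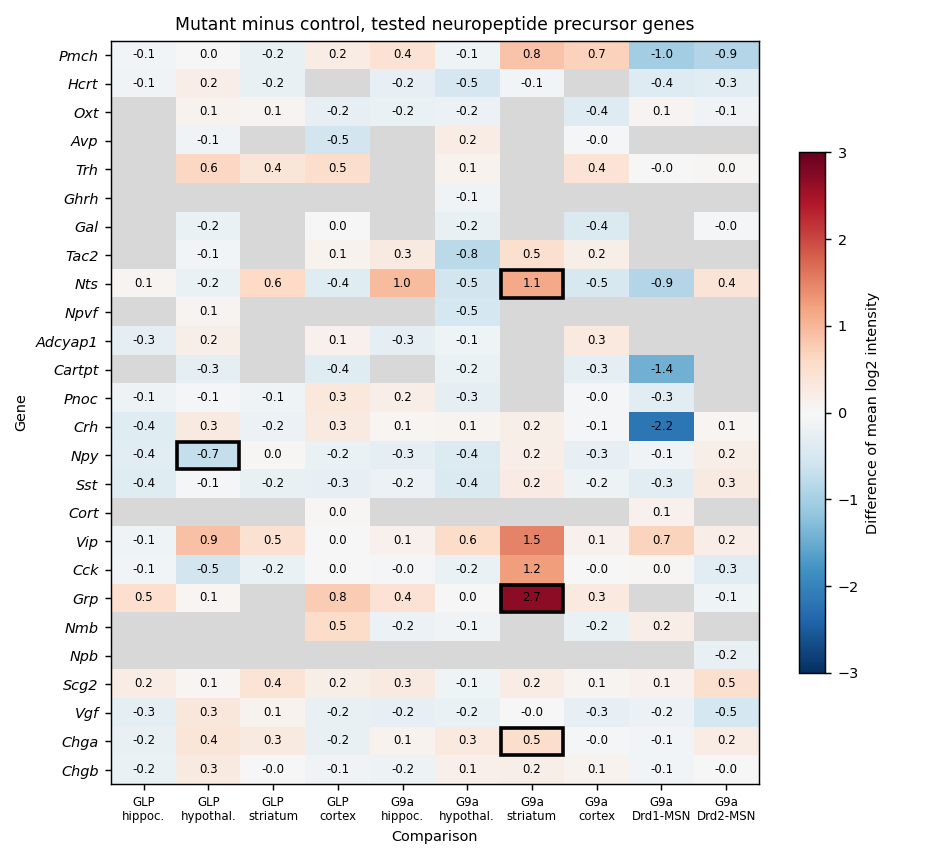
Difference of mean log2 intensity, mutant minus control (colour and number), of the 26 tested members (rows) in the 10 comparisons (columns). Grey cells were not tested because too few arrays lay above the array median, and black frames mark the 4 tests with an adjusted p of at most 0.05, of which Grp in G9a striatum has the largest change.

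The striatum of G9a mutants held most of these calls. Of 14 members tested there, 3 rose and none fell, and the median change was 0.36, against -0.0035 for all genes. Of all genes tested, 3.03% were called and 1.87% were called higher. Grp was 0.56, 1.49, 1.17 and 0.77 in the 4 mutants, against -2.49, -2.25, -0.99 and -1.05 in the 4 controls. The groups did not overlap: every mutant was above the array median and every control below it, so Grp was tested only through the mutants. The difference was 2.69 ± 0.51 (SE; limma, adjusted p = 0.000452). When every value under 0 was raised to 0, the difference was 1.00 ± 0.31 with an adjusted p of 0.0678, so the size of the rise rests on low control values.

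In G9a striatum, Nts was 3.60, 3.07, 3.69 and 3.48 in mutants, against 1.76, 1.92, 2.58 and 3.07 in controls. The lowest mutant lay at the level of the highest control, and the other mutants were above all controls. The difference was 1.13 ± 0.29 (adjusted p = 0.0146), a 2.18-fold higher level in mutants. Chga, encoding chromogranin A, was 4.44, 4.35, 4.23 and 4.49 in mutants, against 3.91, 3.79, 3.81 and 3.87 in controls. Its groups did not overlap, and the difference was 0.54 ± 0.15 (adjusted p = 0.0377).

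Vip and Cck had larger differences than Chga but did not pass. Vip was 1.88, 2.13, 1.13 and 0.75 in G9a mutant striatum, against -0.20, -0.18, 1.11 and -0.77 in controls (difference 1.48 ± 0.44, adjusted p = 0.051). Cck was 5.28, 5.36, 4.34 and 4.64 in mutants, against 2.76, 3.00, 5.20 and 3.68 in controls (difference 1.25 ± 0.45, adjusted p = 0.155). In both genes control 3 lay within the mutants' range. Without control 3, both passed, Vip with a difference of 1.86 (adjusted p = 0.0116) and Cck with 1.76 (adjusted p = 0.0173). Grp passed whichever of the 8 arrays was left out (adjusted p from 0.000423 to 0.00595), but its low values were not raised to 0 in these fits. Nts passed in 5 of 8 such fits and Chga in 1 of 8, with adjusted p of up to 0.125 and 0.116. Nts missed the threshold without mutant 3, control 1 or control 2.

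Markers of cortical and hippocampal excitatory neurons also differed in this region, but not array by array with every gene above. Of 5 such markers tested in G9a striatum, 4 rose (Neurod2, Neurod6, Tbr1 and Slc17a7), and the mean of 6 markers was 1.70, 1.59, 0.89 and 1.22 in mutants, against -0.59, -0.81, 1.71 and -0.64 in controls. Control 3 was at 1.71 in these markers, at 5.20 in Cck, at -0.99 in Grp, at 3.81 in Chga and at 2.58 in Nts. Markers of the thalamus, which lies next to the striatum, were lower in mutants in all 6 cases, by -1.50 to -0.26, and 1 of 6 was called, Ntng1 (-1.50 ± 0.33, adjusted p = 0.00275). Their mean was 2.03, 2.18, 2.55 and 2.27 in mutants, against 2.68, 2.93, 2.56 and 3.67 in controls, without overlap. The part of these neurons and of thalamic tissue in the striatal values was not tested.

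In GLP mutant striatum the marker mean was 2.51, 1.62, -0.52 and 0.21, against 0.32, 0.32, 1.45 and 1.74 in controls. Grp was highest in arrays that were high in these markers, with 2.00, 1.17, -2.28 and -1.13 in mutants, against -2.07, -1.82, 1.37 and -0.36 in controls, and was not tested because too few arrays lay above the median. Mutants 1 and 2 and control 3 were the high arrays in Grp, whereas control 4, with a marker mean of 1.74, was at -0.36, and the groups overlapped. Nts in GLP mutant striatum was 3.93, 3.86, 3.51 and 3.70, against 3.46, 3.25, 3.34 and 2.52 in controls. Its groups did not overlap, and the difference of 0.61 ± 0.29 had an adjusted p of 0.443. Scg2 was 7.75, 7.70, 7.30 and 7.31 in mutants, against 7.21, 7.15, 7.03 and 7.04 in controls, again without overlap (difference 0.41 ± 0.12, adjusted p = 0.0939). With the replicate number as a block, Scg2 passed (adjusted p = 0.0239), and it passed after quantile normalization (adjusted p = 0.0368).

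**Figure D3:**
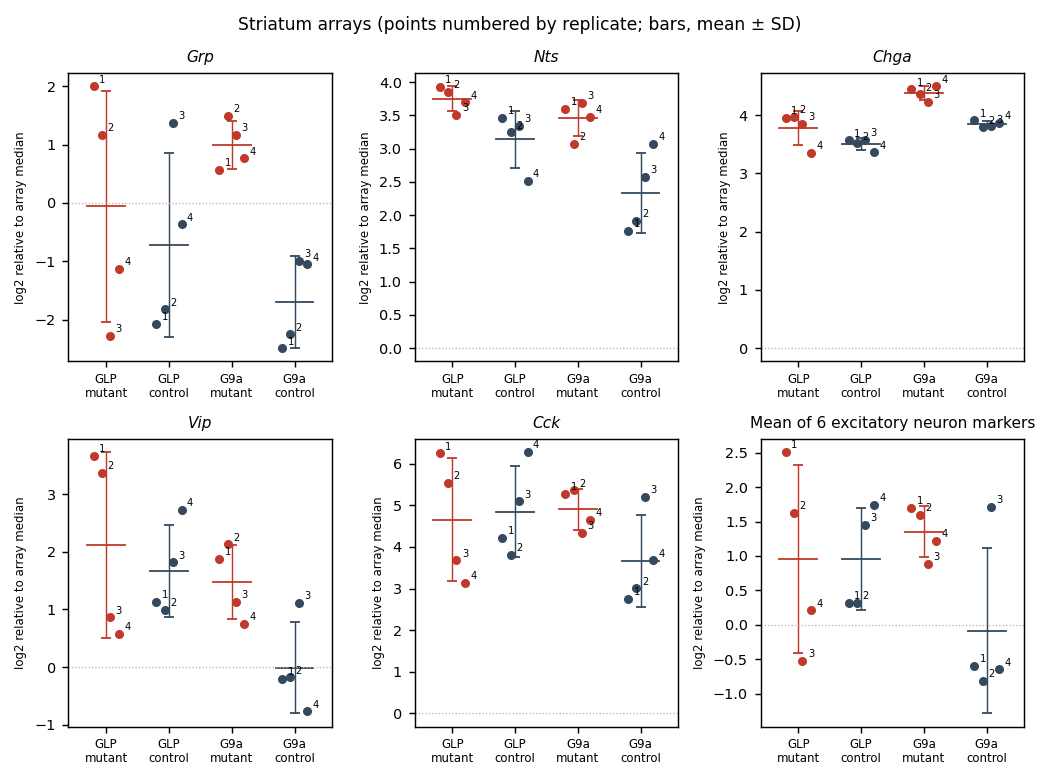
Log2 intensity relative to the array median (vertical axes) of Grp, Nts, Chga, Vip and Cck, and the mean of 6 excitatory neuron markers, in striatum arrays of GLP mutants, GLP controls, G9a mutants and G9a controls. Points are arrays numbered by replicate and bars are mean ± SD; G9a control 3 is at 1.71 in the markers and 5.20 in Cck but at -0.99 in Grp.

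Some members had the same direction in most tissue comparisons. Grp was tested in 7 tissue comparisons and was higher in mutants in all 7, by 0.02 to 2.69. Of 13 members tested in at least 7 of the 8 tissue comparisons, Grp alone was higher in every one, against 3.49% of the 11018 genes so tested. That is 1 member, too few to read against this share, and the cut of 7 is the number in which Grp was tested. In GLP cortex, Grp was 2.59, 2.34, 2.40 and 2.39 in mutants, against 1.53, 1.53, 1.71 and 1.91 in controls. The groups did not overlap and the spread within each was small, but the fit pools the spread of a gene over all tissue groups, and the difference of 0.76 ± 0.51 had an adjusted p of 0.998. Fitted on the GLP cortex arrays alone, the adjusted p was 0.00273. In G9a hippocampus Grp was 4.93, 5.02, 5.04 and 5.57 in mutants, against 4.65, 4.70 and 4.76 in controls (adjusted p = 0.882), also without overlap. Scg2 and Vip were each tested in all 8 tissue comparisons and were higher in mutants in 7, with no adjusted p under 0.05. Trh was higher in mutants in all 5 tissue comparisons where it was tested, by 0.11 to 0.63, with no adjusted p under 0.05. Cartpt was lower in all 4 where it was tested, and Sst in 7 of 8, again with no call. Scg2, Vip, Trh, Cartpt and Sst were picked from all members tested, and the share of all genes with such counts was not computed. Same-numbered GLP controls of different regions shared deviations, so these comparisons may not be independent repeats of a direction.

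Nts changed differently between regions. A moderated F test of the G9a effect over the 4 regions gave F = 8.33 and an adjusted p of 0.0149 for Nts, the only one of 24 members tested to pass, with 1.4% of all genes called. The changes were 0.95 ± 0.31 in hippocampus, -0.54 ± 0.29 in hypothalamus, 1.13 ± 0.29 in striatum and -0.48 in cortex. In G9a hippocampus, Nts was 3.54, 3.22, 4.02 and 3.67 in mutants, against 3.17, 2.65 and 2.17 in controls. The groups did not overlap, and the adjusted p within hippocampus was 0.0982. With 1 array left out in turn, 1 to 3 members passed the F test. Fitted on the compared arrays alone, Nts did not pass (adjusted p = 0.189). The same test of the GLP effect called none of the members, with 1.1% of all genes called. The difference between the GLP and the G9a effect was called for none of the members in any region, with 0.157% of all genes called in hippocampus, 0.00831% in hypothalamus, 0.00842% in striatum and 0.0168% in cortex.

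In GLP mutant hypothalamus, Npy was the single call among 22 members tested, with 0.98% of all genes called and 0.165% called lower. Ehmt1 differed there by -0.16 (adjusted p = 0.713). Npy was 1.78, 1.89, 1.32 and 1.52 in mutants, against 1.92, 3.05, 1.80 and 2.65 in controls. Control 3 lay within the range of the mutants and the other controls lay above every mutant. The difference was -0.73 ± 0.17 (adjusted p = 0.0159), a level at 60.5% of controls. It was lost in 4 of 8 fits that left out an array, with an adjusted p of up to 0.308 without control 2, and in the fit on GLP hypothalamus arrays alone (adjusted p = 0.861). Npy was lower in mutants in 6 of 8 tissue comparisons, a count for which the share of all genes was not computed. In G9a hypothalamus Npy was 2.23, 2.67, 2.94 and 2.68 in mutants, against 2.93, 2.59, 3.35 and 3.29 in controls (difference -0.41 ± 0.17, adjusted p = 0.199). Trh in GLP hypothalamus did not overlap, with 3.11, 2.70, 2.92 and 2.32 in mutants, against 2.23, 2.24, 2.18 and 1.88 in controls, and had a difference of 0.63 ± 0.27 with an adjusted p of 0.411.

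In G9a mutant hypothalamus 1 array decided the outcome. With all arrays, no member passed. Hcrt came nearest, with 5.46, 5.35, 4.78 and 4.78 in mutants, against 6.10, 5.29, 5.43 and 5.60 in controls (difference -0.51 ± 0.17, adjusted p = 0.0829). Mutant 2 stood apart from the other mutants: its Crh was 6.39, against 4.68, 4.82 and 4.66 in the other mutants and 4.66 to 5.53 in controls. Its Nts (5.17), Vip (6.03), Grp (3.78) and Pnoc (3.75) were also above every other G9a hypothalamus array.

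Without mutant 2, 7 of 24 members passed, and 17.5% of all genes did. Tac2 (-1.29, adjusted p = 0.00593), Nts (-1.005, adjusted p = 0.00486), Npvf (-0.95, adjusted p = 0.0326) and Pnoc (-0.88, adjusted p = 0.028) were lower. Sst (-0.62, adjusted p = 0.0101) and Hcrt (-0.60, adjusted p = 0.0159) were lower as well, and Chgb was higher (0.29, adjusted p = 0.0329). Leaving out any other array gave at most 1 call, Hcrt without mutant 1. The mean of 8 pituitary markers was -0.72, 1.50, 0.34 and -0.88 in mutants, against -0.51, -1.69, -1.81 and -0.94 in controls, so mutant 2 also had the highest level of pituitary genes. Of 3 pituitary markers tested, Gh alone was called (difference 5.02, adjusted p = 0.0445). Of 7 MSN markers tested, Drd1 alone was called (difference 1.11, adjusted p = 7.83e-05). The part of neighbouring tissue in these values was not tested.

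**Figure D4:**
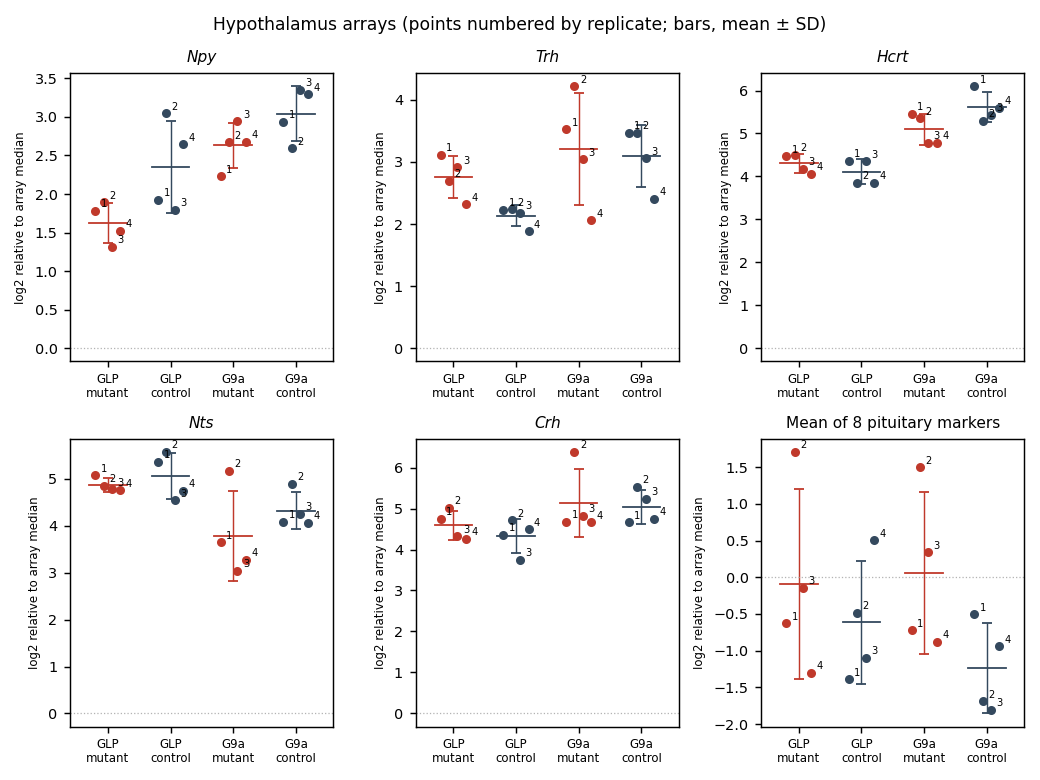
Log2 intensity relative to the array median (vertical axes) of Npy, Trh, Hcrt, Nts and Crh, and the mean of 8 pituitary markers, in hypothalamus arrays of GLP mutants, GLP controls, G9a mutants and G9a controls. Points are arrays numbered by replicate and bars are mean ± SD; G9a mutant 2 is the highest G9a array in Nts, Crh and the pituitary markers.

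Several receptors for these peptides rose. Of 42 measured receptor genes, 19 were tested in G9a striatum and 5 rose, while 2 of 19 rose in GLP striatum, 1 of 21 in GLP cortex and 2 of 21 in G9a hippocampus. None fell in these comparisons, and none of the receptors passed in the other 6. The share of all genes called was 3.03% in G9a striatum, 1.65% in GLP striatum, 1.54% in GLP cortex and 2.64% in G9a hippocampus, and 1 or 2 receptors are few to read against it. Crhr1, the main receptor of corticotropin-releasing hormone, rose in 4 comparisons. In G9a hippocampus it was 2.01, 1.85, 1.86 and 1.96 in mutants, against 1.20, 0.99 and 0.95 in controls (difference 0.87 ± 0.14, adjusted p = 3.81e-05). The groups did not overlap. It also rose in GLP striatum by 0.64 ± 0.13 and in G9a striatum by 0.60 ± 0.13, both without overlap, and in GLP cortex by 0.52 ± 0.13, where mutant 1 and control 4 were both at 2.06.

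Trhr, the receptor of thyrotropin-releasing hormone, was 3.08, 3.19, 2.55 and 2.54 in GLP mutant striatum, against 0.96, 0.91, 2.16 and 1.56 in controls (difference 1.45 ± 0.31, adjusted p = 0.00321). In G9a striatum it was 1.69, 2.53, 2.15 and 1.90 in mutants, against -0.16, 0.65, 0.67 and 0.14 in controls (difference 1.74 ± 0.31, adjusted p = 0.000152). Neither series overlapped. Sstr2, a somatostatin receptor (1.35 ± 0.25), and Cckbr, the brain receptor of cholecystokinin (0.94 ± 0.21), also rose in G9a striatum. For Sstr2, control 3 reached the level of the lowest mutant, whereas for Cckbr the groups did not overlap. Ntsr1, a neurotensin receptor, rose in G9a hippocampus, with 0.98, 0.82, 0.68 and 0.93 in mutants, against -0.66, -1.04 and -0.42 in controls (difference 1.56 ± 0.32, adjusted p = 0.00146). All controls lay below the array median, so it was tested only through the mutants. With every value under 0 raised to 0, the difference was 0.85 ± 0.21 (adjusted p = 0.00933).

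Of 29 processing and vesicle genes measured, 2 of 27 tested rose in G9a striatum, where 1.87% of all genes were called higher: Pcsk5, a convertase that cuts precursors (0.92 ± 0.19, adjusted p = 0.00164), and Cadps2, which primes dense-core vesicles (1.39 ± 0.35, adjusted p = 0.0134). Cadps2 was 4.81, 5.07, 4.19 and 4.47 in mutants, against 2.60, 2.95, 4.62 and 2.82 in controls. Control 3, the control highest in the excitatory markers, lay within the mutants' range, and the part of those neurons was not tested. Mme, the peptidase neprilysin that degrades released peptides, fell in GLP striatum, with 4.86, 5.03, 4.49 and 4.88 in mutants, against 5.47, 5.56, 5.35 and 5.47 in controls (difference -0.64 ± 0.16, adjusted p = 0.0201). It also fell in G9a hypothalamus (difference -0.63 ± 0.16, adjusted p = 0.0245). Neither comparison overlapped. Mme was 1 of 26 such genes tested in GLP striatum, with 1.65% of all genes called, and 1 of 29 in G9a hypothalamus, with 2.34%. None of these genes passed in the other 7 comparisons. Of 24 other peptide precursors measured, Pdyn, the dynorphin precursor of hippocampal granule cells, alone passed. It rose in GLP hippocampus, with 0.34, 0.40, 0.42 and 0.18 in mutants, against -0.06, -0.34, -0.67 and -0.23 in controls (difference 0.66 ± 0.17, adjusted p = 0.0257). All controls lay below the array median, so it was tested only through the mutants, and with every value under 0 raised to 0 the difference was 0.33 ± 0.16 and did not pass (adjusted p = 0.547). In G9a hippocampus Pdyn differed by 0.64 ± 0.19 and did not pass (adjusted p = 0.0541), but it passed with that floor (adjusted p = 0.025). In GLP hippocampus 10 of 11 choroid plexus markers rose, with a marker mean of 3.72 to 4.61 in mutants, against 0.38 to 2.79 in controls. Their part in the Pdyn value was not tested.

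In MSN, no member was called between pools labelled mutant and control pools in either cell type. In Drd1-MSN, mutant pool 2 stood apart: its Crh was -0.09, against 5.61 and 5.30 in the other mutant pools and 5.66 to 5.87 in control pools. Cartpt was 0.81, -0.15 and 0.03 in Drd1-MSN mutant pools, against 0.74, 2.58 and 1.67 in control pools, and overlapped at control pool 1 (difference -1.44). Nts did not overlap between Drd1-MSN mutant and control pools (difference -0.88 ± 0.30, adjusted p = 0.936). In Drd2-MSN the changes of the 17 members tested ran from -0.88 to 0.48. No member's G9a effect differed between the cell types, nor did that of any of the 12647 genes tested (0% called).

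The control pools of both cell types did differ. Of 18 members tested, 6 were higher in Drd1-MSN than in Drd2-MSN and none was lower, with 15.3% of all genes called, 7.64% higher and 7.67% lower. As a check of the labels, Drd2 averaged 3.96 in Drd1-MSN pools and 6.79 in Drd2-MSN pools, while Drd1 averaged 8.11 and 8.46 and did not separate them. Cort was 0.48, 0.48 and 0.38 in Drd1-MSN control pools, against -2.25, -2.31 and -2.30 in Drd2-MSN control pools (difference 2.74 ± 0.13, adjusted p = 5.68e-07). The pools labelled mutant repeated this, with 0.65, 0.58 and 0.49 in Drd1-MSN and -2.25, -2.29 and -1.97 in Drd2-MSN. Cort lay above the array median in all 6 Drd1-MSN pools and below it in all 6 Drd2-MSN pools, so it was tested only through the Drd1-MSN pools. With every value under 0 raised to 0, the difference between control pools was 0.45 ± 0.04 (adjusted p = 0.000273).

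The granins Scg2 and Chgb and the CART precursor Cartpt, whose promoters hold the full CRE printed above, were among the 6. Cort and Cck, also among the 6, held TGACG but no full CRE in their windows, and Pnoc had no promoter entry. Scg2 was 8.17, 7.57 and 7.40 in Drd1-MSN control pools, against 4.70, 6.24 and 6.25 in Drd2-MSN control pools (difference 1.98 ± 0.38, adjusted p = 0.00604). Chgb was 8.81, 8.74 and 8.73 in Drd1-MSN, against 7.44, 7.70 and 7.62 in Drd2-MSN (difference 1.17 ± 0.19, adjusted p = 0.00249). Neither gene overlapped between the cell types, also not in the pools labelled mutant. Sst, which holds a CRE too, did not pass between the control pools.

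Cck was 5.95, 6.38 and 5.94 in Drd1-MSN control pools, against 4.62, 4.89 and 4.67 in Drd2-MSN control pools (difference 1.36 ± 0.23, adjusted p = 0.00313). Cartpt was higher in Drd1-MSN by 2.14 ± 0.42 (adjusted p = 0.00674) and Pnoc by 1.37 ± 0.29 (adjusted p = 0.00962), or by 0.52 ± 0.15 (adjusted p = 0.0495) with every value under 0 raised to 0. In the pools labelled mutant, Cort, Scg2, Chgb and Cck passed again, with differences of 2.74, 1.63, 1.10 and 1.71. Cartpt differed by 0.79 and Pnoc by 1.11 there, and neither was tested because too few of those pools lay above the median. Npy (-1.21, adjusted p = 0.0481) and Sst (-1.39, adjusted p = 0.0312) were lower in Drd1-MSN than in Drd2-MSN in the pools labelled mutant, while in control pools their differences were -0.92 (adjusted p = 0.118) and -0.80 (adjusted p = 0.185). Beside these values, 4 of 7 choroid plexus markers and 2 of 5 thalamus markers tested were higher in Drd1-MSN control pools. The thalamus marker mean was 4.69, 3.40 and 2.56 in Drd1-MSN control pools, against 2.47, 2.50 and 2.69 in Drd2-MSN. Drd1-MSN control pools were all female and 2 of 3 Drd2-MSN control pools male. The part of carried-over RNA or of sex in the 6 differences was not tested.

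**Figure D5:**
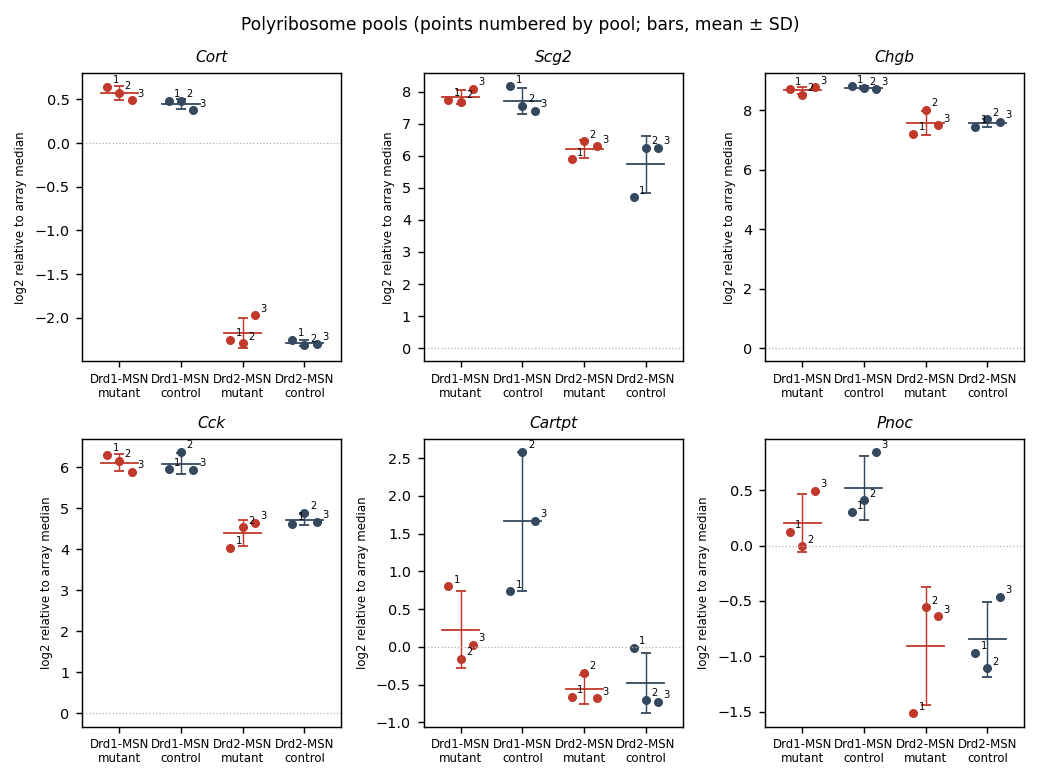
Log2 intensity relative to the array median (vertical axes) of Cort, Scg2, Chgb, Cck, Cartpt and Pnoc in polyribosome pools of Drd1-MSN (mutant, control) and Drd2-MSN (mutant, control). Points are pools numbered as in the labels and bars are mean ± SD; Cort lies between 0.38 and 0.65 in Drd1-MSN pools and between -2.31 and -1.97 in Drd2-MSN pools.

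Against striatum tissue of control mice, polyribosome RNA was higher for most genes, with a median difference over all genes of 0.67 for Drd1-MSN and 0.64 for Drd2-MSN. Preparation and cell type cannot be told apart in these contrasts. Of the members, 13 of 18 were higher and 1 was lower in Drd1-MSN (73.4% of all genes called), and 10 of 17 were higher and 2 lower in Drd2-MSN (70.4%). Cartpt exceeded striatum by 3.85 ± 0.32 in Drd1-MSN and Vip by 2.63 ± 0.41, both well above that median, and with every value under 0 raised to 0 Cartpt exceeded it by 1.66 ± 0.27. Crh was higher by 2.16 ± 0.37 in Drd1-MSN and by 1.77 ± 0.37 in Drd2-MSN. Npy, made by striatal interneurons, differed by 0.00 ± 0.21 in Drd1-MSN and by 0.92 ± 0.21 in Drd2-MSN. Sst, made by the same interneurons, differed by -0.55 ± 0.19 and 0.25 ± 0.19. Scg2 was lower in Drd2-MSN than in striatum (-1.33 ± 0.27, adjusted p = 0.000453) and higher in Drd1-MSN by 0.65 ± 0.27, the size of the median over all genes, and after quantile normalization this last value was -0.22. Pmch varied more among pools than between groups, from 0.72 to 3.80 in Drd1-MSN control pools and from 1.35 to 4.52 in Drd2-MSN control pools.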

How the data were processed

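For each of 71 arrays the authors deposited an intensity per probe set, computed with GCRMA per the submitters' processing notes, a method that adjusts for background, normalizes and combines probes. Each deposited array had a median of 1, and log2 of the deposited values was analysed. Of 45101 probe sets, 64 controls were left out, 34945 had 1 gene symbol, 932 several and 9160 none. The members and all gene lists were chosen with earlier results of these data known, and any member could be named, with at most 4 called genes per other list and comparison.

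With limma 3.58.1 (R 4.3.3), a mean was estimated for each group in separate fits for tissue mutants and controls, for pools, and for control regions and pools, with an intensity trend and Benjamini-Hochberg adjustment over all genes tested in a comparison at 0.05. A gene was tested where log2 exceeded 0 in at least as many arrays as the smallest compared group holds, so a gene low in 1 group was tested through the other. The p-values measure the spread between arrays pooled over a fit, which the number of arrays limits. The fit was tested on simulated data. The values by series, the pools labelled mutant as a repeat, the raised low values for genes of other lists and the left-out arrays for the targeted genes were alternatives chosen after seeing the data. Titles gave groups and replicate numbers. Same-numbered mutant and control arrays shared deviations in Drd2-MSN (correlations 0.165 to 0.486 over 3 pairs), where blocking changed no call. In G9a hypothalamus 3 of 4 mutants matched their own number best (-0.031 to 0.634). In G9a cortex 2 of 2 did, at a correlation of only 0.028, and elsewhere not every pair did. Same-numbered GLP controls of different regions also shared deviations (median correlation 0.296 over 24 pairs, against -0.133 for other numbers). The region contrasts treat these arrays as independent. With a replicate block they called 17 members in hippocampus, 23 in hypothalamus, 23 in striatum and 17 in cortex. Promoters came from RefSeq (GRCm38.p6).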

Additional observations from a re-analysis of the deposited data

Results flagged for a closer look

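Of 242 group values of members that were examined, 14 (5.79%) had 1 array far from the others of its group, and chance alone marks about 1 in 20. The values are log2 intensities relative to the array median.

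In GLP hippocampus controls, control 2 was high in Hcrt (0.935, others 0.066 to 0.171) and Vgf (5.12, others 4.93 to 4.95), and control 4 was low in Vip (3.92, others 4.42 to 4.50). In GLP hypothalamus, control 4 was low in Trh (1.88, others 2.18 to 2.24). In GLP cortex, mutant 4 was low in Cck (7.78, others at 7.83) and high in Gal (0.282, others -0.083 to -0.025). Control 2 of GLP cortex was low in Nmb (-0.761, others 0.151 to 0.253), and control 3 was high in Vgf (6.06, others 5.92 to 5.94).

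In G9a hippocampus, mutant 4 was high in Grp (5.57, others 4.93 to 5.04) and low in Nmb (-0.442, others 0.153 to 0.223), and mutant 3 was high in Oxt (0.099, others -0.1 to -0.089). In G9a hypothalamus, mutant 2 was high in Crh (6.39, others 4.66 to 4.82), and control 1 was high in Vgf (6.37, others 5.61 to 5.72). In G9a striatum, control 1 was low in Crh (2.38, others 3.96 to 4.22).

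The G9a effect on Nts differed between the 4 tissues (limma's moderated F test, adjusted p = 0.0149), with positive changes in hippocampus and striatum and negative ones in hypothalamus and cortex.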

How the results depend on the processing

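Counts of members under another setting stayed within 1.5 times the count reported in 211 cases and did not in 9. With the fit on the compared arrays alone, the count was 0 in GLP hypothalamus and 2 in GLP cortex. After quantile normalization it was 1 in GLP striatum (Scg2) and 1 in G9a hypothalamus (Hcrt). With the replicate block it was 1 in GLP striatum (Scg2), and in no other mutant comparison did the block change the count; a block for Drd1-MSN against Drd2-MSN could not be estimated and was not run. Without the filter, 1 member passed in G9a hippocampus (Cort), 11 between Drd1-MSN and Drd2-MSN and 24 between Drd2-MSN and striatum, and with the stricter filter 3 passed between Drd1-MSN and Drd2-MSN.

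With 1 array left out in turn, 0 to 1 members passed in GLP hypothalamus, GLP striatum and G9a hippocampus, 0 to 7 in G9a hypothalamus, 1 to 4 in G9a striatum and 1 to 3 for the G9a effect across regions. Of Drd1-MSN against Drd2-MSN, 6 to 7 passed.

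A called value turned its sign in 7 cases. Cort in hippocampus was -0.0099 when every value under 0 was raised to 0. Within the G9a series, Vgf in hypothalamus was 0.46 and Npy in striatum -0.054. Against striatum, quantile normalization gave -0.22 for Scg2 in Drd1-MSN and -0.41 for Chgb in Drd2-MSN. Avp in Drd2-MSN was -0.046 with the same floor and -0.094 against GLP series controls. The cause was not tested. Small groups and members near the array median limit what could be called.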
